A study of Mus musculus with 9 samples.

Results

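Of the 54146 genes in the RNA-seq table of mouse colonic mucosa, 10 genes of the tight junction were taken by their symbols. They are the claudins Cldn2, Cldn3, Cldn4, Cldn7, Cldn8, Cldn12, Cldn15 and Cldn23, the occludin gene Ocln, and Tjp1, which encodes the scaffold protein ZO-1. All 10 were among the 14410 genes tested. The mucosa came from 5 ApcMin/+ mice and 4 ApcMin/+; p16cis/cis mice, all C57BL/6J and 15 wk old, and each mouse gave 1 library. ApcMin, a germline truncating mutation of the tumor suppressor Apc, was carried on 1 allele by every mouse, so the controls are not wild type. The p16cis allele is a germline knock-in of a sequence that draws DNA methylation to the p16 promoter, present on both alleles in the second group and in all cells rather than in the epithelium alone. The ApcMin/+ group held 2 females and 3 males, and the ApcMin/+; p16cis/cis group held 3 females and 1 male. The comparison asked which genes p16 epimutation altered in Apc-mutant colonic mucosa.

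Tight junctions seal the space between neighboring epithelial cells at their apical ends. Claudins span the membrane in strands and set which ions and molecules pass between cells, some by sealing the strand and others by forming pores in it. Occludin is a second membrane protein of the strands, and ZO proteins tie both to the actin cytoskeleton. In the colon, sealing claudins are abundant in the epithelium of the crypt and surface, while the pore-forming Cldn2 is best known from immature crypt cells and the small intestine.

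The libraries held 13523500 to 17885918 reads on genes. Mitochondrial genes took 8.74% to 15.6% of the reads in ApcMin/+ mice and 19.3% to 29.8% in ApcMin/+; p16cis/cis mice, without overlap, so this property and the genotype cannot be told apart. Cdkn2a, the gene of p16, was listed at 0 in all 9 mice and gave no check of the labels. All 10 epithelial markers were tested and their summed normalized count was 262956 to 426211 per mouse, against 206 to 2078 for 15 immune markers, 158 to 959 for 12 stroma and muscle markers and 146 to 384 for 8 endothelial markers. A normalized count is a read count divided by the size factor of its library. The methods of the study state that the RNA was taken from colonic crypts. Because it was bulk RNA, fewer cells of a type and less RNA per cell cannot be told apart in any of the results.

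Ocln was the only member that passed the test, and it was lower in ApcMin/+; p16cis/cis mice. None of the 10 members passed as higher. The pore-forming claudins Cldn2 and Cldn15, the abundant sealing claudins Cldn3 and Cldn7, and Tjp1 gave differences of less than the spread between mice, while Cldn4 and Cldn23 had lower means that did not pass. The count of 1 in 10 has to be read beside all genes tested, of which 16.9% passed limma at an adjusted p-value under 0.05, 8.75% lower and 8.14% higher. A share of that size is near the background and is not a result about the members as a group. With a fold change over 2 required as well, no member passed, against 3.48% of all genes (1.64% lower and 1.83% higher). The median log2 fold change was -0.16 over the 10 members and -0.00 over all genes tested.

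**Figure D1:**
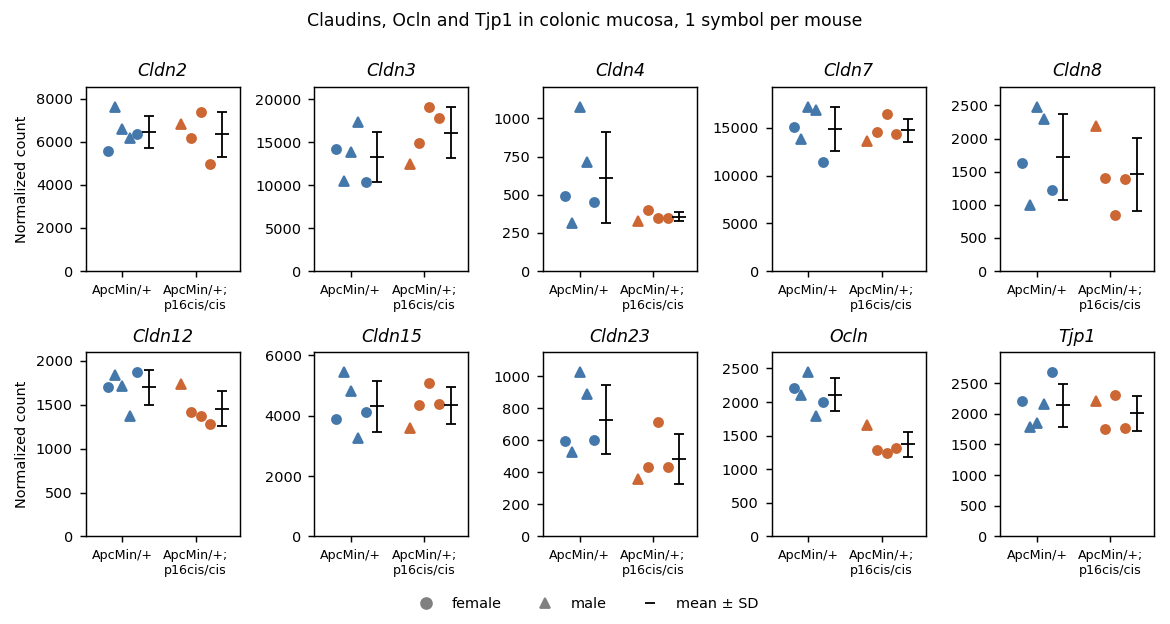
Normalized count (y axis, from 0) of each of the 10 genes in each mouse, by genotype, with circles for females, triangles for males and bars for the mean ± SD (n = 5 and n = 4). The symbols of Ocln do not overlap between the genotypes, and those of the other 9 genes do.

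Occludin (Ocln, ENSMUSG00000021638.12) lies on chromosome 13 from 100496507 to 100552718 on the minus strand of GRCm38. Its normalized counts were 2211, 2106, 2444, 1786 and 2000.0 in ApcMin/+ mice 1 to 5, and 1652, 1282, 1243 and 1313 in ApcMin/+; p16cis/cis mice 1 to 4. Every ApcMin/+; p16cis/cis mouse was below every ApcMin/+ mouse, and the nearest values were those of the males ApcMin/+ mouse 4 and ApcMin/+; p16cis/cis mouse 1. Of all genes tested, 16.2% had no overlap between the genotypes, 8.95% being lower and 7.24% higher, and Ocln was the only member among them. The mean fell from 2109 ± 244 (SD, n = 5) in controls to 1372 ± 188 (SD, n = 4) in the p16cis/cis group. The log2 fold change was -0.62 (SE 0.12, 95% interval -0.88 to -0.36, limma adjusted p = 0.00738), a level lower by 35.0% on the log2(normalized count + 1) scale of the fit.

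The difference in Ocln kept its direction and passed whichever mouse was left out, with log2 fold changes from -0.71 to -0.57 and limma adjusted p-values from 0.00221 to 0.0281. In the females alone it was -0.72 (limma adjusted p = 0.0222), and with sex as a covariate it was -0.57 (limma adjusted p = 0.0223). A single ApcMin/+; p16cis/cis male left no comparison within males. With the mitochondrial share as a covariate it was -0.34 and no longer passed (limma adjusted p = 0.860), a fit in which 0 of all genes passed and 798 had an unadjusted p-value under 0.05.

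The motif CAGGTG, or CACCTG on the other strand, is an E-box to which repressors of the Snail family are known to bind at junction genes. It was searched in the 250 bases before each RefSeq start site of GRCm38.p6. Of 32851 such windows 17.2% held it. RefSeq start sites were matched for 8 of the 10 members, in 12 windows, of which 3 held the motif. These belong to Ocln, Cldn4 and Cldn7 and are shown because they set the 1 member that passed beside a lower-mean claudin and a claudin with close means. The stretches run 5′ to 3′ on the strand of the gene with the motif in capitals. For Ocln and Cldn7 the bases are counted from the later of their start sites, at 100552498 and 69965421. Their motifs thus lie past the earlier start sites, at 100552718 and 69964779, and inside the gene. They lie at chr13:100552694-100552723 and chr13:100552549-100552578 for Ocln (minus strand), chr11:69965312-69965341 and chr11:69965352-69965381 for Cldn7 (plus strand), and chr5:134946935-134946964 for Cldn4 (minus strand).
Ocln, 213 bases before its start: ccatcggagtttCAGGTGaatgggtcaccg
Ocln, 68 bases before: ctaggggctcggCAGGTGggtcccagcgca
Cldn7, 97 bases before: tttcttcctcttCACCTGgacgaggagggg
Cldn7, 57 bases before: agacttccggttCAGGTGagtgtcccttca
Cldn4, 14 bases before: ggagctttaactgcagCACCTGtggccgcc

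Each match is a description of the sequence and not a measured binding site. Ocln and Cldn7 each held the motif at 1 of their 2 start sites. Whether the motif had a part in any difference between the genotypes was not tested. Snai1 had 1.503 to 10.1 normalized counts per mouse and was not tested, and Snai2 had 1 read in all.

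Among the pore formers, Cldn2 (ENSMUSG00000047230.6, chromosome X, 139800828 to 139811386, plus strand) builds channels for small cations and water. Its normalized count was 4983 to 7637 over the 9 mice, with a mean of 6464 ± 760 (SD, n = 5) in ApcMin/+ against 6361 ± 1041 (SD, n = 4) in the other genotype. Both the lowest and the second highest mouse were ApcMin/+; p16cis/cis mice, and the log2 fold change was -0.03 (95% interval -0.32 to 0.26, limma adjusted p = 0.900). Cldn15 (ENSMUSG00000001739.14, chromosome 5, 136966616 to 136975858, plus strand), the other cation pore of the intestine, had means of 4303 ± 846 (SD, n = 5) and 4347 ± 610 (SD, n = 4). Its log2 fold change was 0.03 (95% interval -0.31 to 0.36, limma adjusted p = 0.928). The genotypes overlapped in both pore genes, and the intervals leave room for changes of up to 0.36 on the log2 scale.

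Cldn3 and Cldn7 are sealing claudins and were the most abundant members. Cldn3 (ENSMUSG00000070473.4, chromosome 5, 134986214 to 134987472, plus strand) had normalized counts of 14214, 10552, 13919, 17367 and 10321 in ApcMin/+ mice 1 to 5, and 12503, 14972, 19155 and 17815 in ApcMin/+; p16cis/cis mice 1 to 4. Its mean was the one furthest above the controls among the members, yet the groups overlapped and the log2 fold change of 0.29 did not pass (SE 0.18, 95% interval -0.11 to 0.68, limma adjusted p = 0.298). An antisense gene, Wbscr25, overlaps its exon but had at most 10.97 normalized counts per mouse. Cldn7 (ENSMUSG00000018569.12, chromosome 11, 69964779 to 69967885, plus strand) had means of 14895 ± 2343 (SD, n = 5) and 14763 ± 1202 (SD, n = 4), which gave a log2 fold change of -0.00 (95% interval -0.31 to 0.31, limma adjusted p = 0.996).

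Cldn4, a sealing claudin and the receptor of a bacterial enterotoxin, lies beside Cldn3 on chromosome 5 (ENSMUSG00000047501.3, 134945119 to 134946934, minus strand). Its normalized counts were 493, 314, 1076, 717 and 453 in ApcMin/+ mice, and 331, 400.4, 344 and 349 in ApcMin/+; p16cis/cis mice. The ApcMin/+; p16cis/cis mice were close to each other, with a coefficient of variation of 8.56%, whereas the ApcMin/+ mice ranged widely, with 48.8%, and their lowest mouse was below all of the other genotype. The means were 611 ± 298 (SD, n = 5) and 356 ± 30.5 (SD, n = 4). The log2 fold change of -0.65 was as large as that of Ocln but did not pass (SE 0.28, 95% interval -1.26 to -0.04, limma adjusted p = 0.127). It passed without ApcMin/+ mouse 2 (-0.86, limma adjusted p = 0.0455) and with DESeq2 on the recovered reads (-0.77, adjusted p = 0.0391). Without ApcMin/+ mouse 3, the highest, it was -0.41 (limma adjusted p = 0.234), and in females alone -0.38 (limma adjusted p = 0.208).

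Cldn23 (ENSMUSG00000055976.6, chromosome 8, 35824712 to 35826559, minus strand) is a claudin of differentiated surface cells in the gut. Its normalized counts were 594, 529, 1024, 889 and 604 in ApcMin/+ mice, and 357, 432, 712 and 431 in ApcMin/+; p16cis/cis mice. All ApcMin/+; p16cis/cis mice except mouse 3 were below all ApcMin/+ mice. The means were 728 ± 216 (SD, n = 5) and 483 ± 157 (SD, n = 4), which gave a log2 fold change of -0.59 that did not pass (SE 0.23, 95% interval -1.09 to -0.09, limma adjusted p = 0.0971). Without ApcMin/+; p16cis/cis mouse 3 it was -0.79 and passed (limma adjusted p = 0.0314). It was -0.46 without ApcMin/+ mouse 3 (limma adjusted p = 0.204) and -0.46 without ApcMin/+; p16cis/cis mouse 1 (limma adjusted p = 0.217). In females alone it was -0.23 (limma adjusted p = 0.564).

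Cldn8 (ENSMUSG00000050520.4, chromosome 16, 88560828 to 88563183, minus strand), a sealing claudin of the distal colon, varied widely within both genotypes. Its normalized counts were 1634, 1000.3, 2479.9, 2292 and 1219 in ApcMin/+ mice, and 2187, 1409, 848 and 1385 in ApcMin/+; p16cis/cis mice. The ranges overlapped almost fully, and the log2 fold change was -0.24 with a wide interval (-0.88 to 0.41, limma adjusted p = 0.619). Within the ApcMin/+ group, Cldn4 and Cldn8 had the same order of mice, from mouse 3 through 4, 1 and 5 down to 2, and Cldn23 shared its top pair and its lowest mouse. In the ApcMin/+; p16cis/cis group the highest mouse was a different one for each of these 3 claudins.

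Cldn12 (ENSMUSG00000046798.14, chromosome 5, 5489537 to 5514958, minus strand), a claudin without the usual C-terminal motif for binding ZO proteins, had 1370.3 to 1872 normalized counts in ApcMin/+ mice and 1281 to 1740.1 in ApcMin/+; p16cis/cis mice. The groups overlapped, and the difference of -0.23 on the log2 scale did not pass (SE 0.12, 95% interval -0.49 to 0.04, limma adjusted p = 0.212). Tjp1 (ENSMUSG00000030516.14, chromosome 7, 65296165 to 65527781, minus strand) had means of 2138 ± 353 (SD, n = 5) and 2009 ± 287 (SD, n = 4), which gave a log2 fold change of -0.09 (95% interval -0.38 to 0.21, limma adjusted p = 0.701). The scaffold gene therefore showed no detectable difference where its membrane partner Ocln was lower, but an interval that reaches -0.38 does not show that its level was equal.

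**Figure D2:**
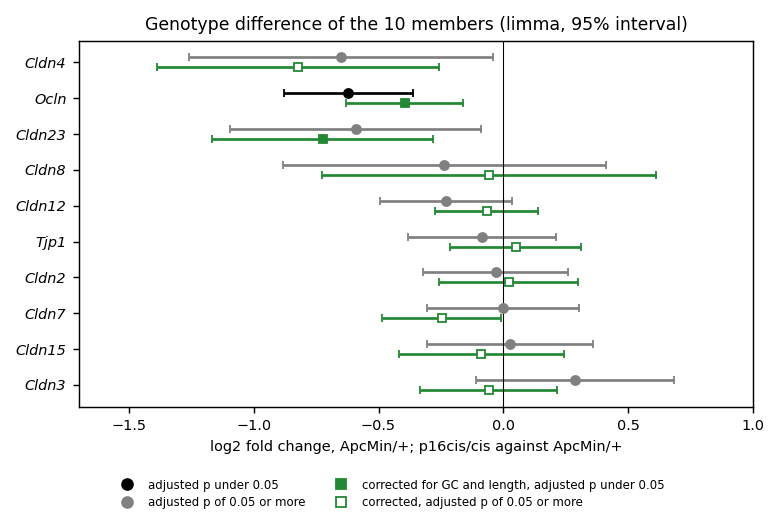
log2 fold change (x axis, ApcMin/+; p16cis/cis against ApcMin/+) of each of the 10 members with its 95% interval, as tested (circles) and after correction for GC content and length (squares), filled dark where the adjusted p-value was under 0.05. Only Ocln passed as tested, at -0.62, and Ocln and Cldn23 passed after correction, at -0.40 and -0.72.

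The genotype difference depended on the GC content of the transcripts over all genes. The median log2 fold change rose from -0.23 in the 2881 genes of lowest GC content (27.5% to 43.9%) to 0.19 in the 2881 genes of highest GC content (55.3% to 78.3%), among 5 groups of nearly equal size. The members spread over this range, from Cldn8 at 40.6% and Ocln at 42.0% to Cldn3 at 62.7%. Ocln was thus in the group where lower values were usual, whereas Cldn4 at 56.8% and Cldn23 at 54.8% had lower means in groups whose median was above 0. Whether the trend arose in the libraries or in the tissue was not tested.

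A correction for GC content and length, chosen after this trend was seen, changed what passed. Ocln remained lower, at -0.40 (95% interval -0.63 to -0.16, limma adjusted p = 0.0360), a smaller difference than before correction. Cldn23 now passed, at -0.72 (95% interval -1.17 to -0.28, limma adjusted p = 0.0400), and Cldn4 was at -0.82 without passing (limma adjusted p = 0.0589). Cldn3, with the highest GC content, went from 0.29 to -0.06, and Cldn7 from -0.00 to -0.25 (limma adjusted p = 0.158). After this correction 2 of the 10 members passed, both lower, where 5.76% of all genes passed lower and 6.33% higher.

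**Figure D3:**
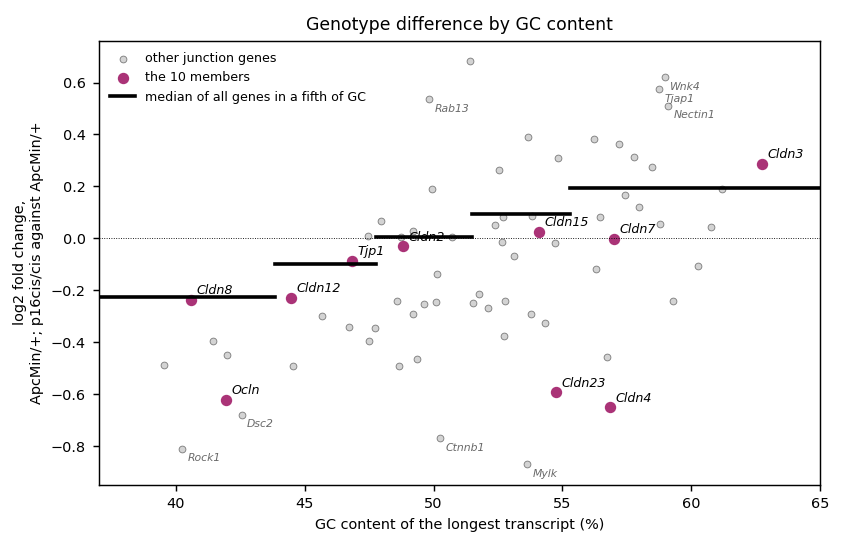
log2 fold change (y axis) against the GC content of the longest transcript in percent (x axis) for the 10 members and the other tested junction genes, with the median of all genes in each of 5 groups by GC content as black lines. The medians climb from -0.23 to 0.19, and Cldn4 and Cldn23 lie far below the line of their group.

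Levels of different genes were compared as normalized counts per kb of exons, averaged over the 9 mice. Cldn3 was highest at 11545, followed by Cldn7 at 7616, Cldn15 at 2035 and Cldn2 at 1930.4. Cldn8 at 682, Ocln at 422, Cldn12 at 376, Cldn23 at 335, Cldn4 at 274 and Tjp1 at 266 made up the lower part. The 2 sealing claudins thus exceeded the pore formers in every mouse, and the pore formers exceeded Cldn8 in every mouse. Some neighbors in this order could not be separated. Cldn15 was above Cldn2 in 7 of 9 mice, Ocln above Cldn12 in 6, Cldn12 above Cldn23 in 6, and Cldn4 above Tjp1 in only 2. Cldn3 was above Cldn7 in all 9 mice by the length of all exons but in 4 by the length of the longest transcript, so their order depends on that choice.

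**Figure D4:**
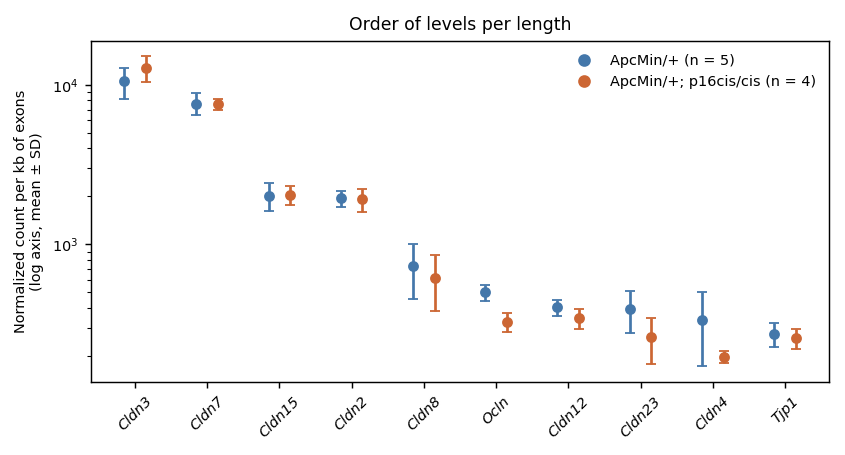
Normalized count per kb of exons (y axis, log axis) of the 10 members by genotype, as mean ± SD (n = 5 and n = 4), ordered by the mean over the 9 mice. Cldn3 and Cldn7 stand above the pore formers Cldn15 and Cldn2, and the 6 other genes lie lower still.

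In the summed level per kb of the 8 claudins, Cldn3 made up 43.6% ± 4.26 (SD, n = 5) of the ApcMin/+ total against 49.4% ± 4.05 (SD, n = 4) in the other genotype. Cldn7 made up 31.8% ± 1.22 (SD, n = 5) and 29.5% ± 1.55 (SD, n = 4). The pore formers Cldn2 and Cldn15 together held 16.9% ± 4.15 (SD, n = 5) and 15.4% ± 1.36 (SD, n = 4). Their share differed by -1.502 percentage points, less than the SD within ApcMin/+ mice but more than that within the other genotype. Cldn3 and Cldn7 together held 75.4% ± 3.82 (SD, n = 5) and 78.9% ± 2.53 (SD, n = 4). The genotypes overlapped in both pooled shares. No share was tested or corrected for GC content. The shares of Cldn4 went from 1.36% ± 0.53 (SD, n = 5) to 0.77% ± 0.11 (SD, n = 4), and those of Cldn23 from 1.62% ± 0.31 (SD, n = 5) to 1.00% ± 0.21 (SD, n = 4).

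A ratio of 2 well-expressed genes within a mouse, taken as the difference of their log2(normalized count + 1) values, hardly depends on the size factor of its library. The pairs that follow were chosen after the values were seen and carry no test. Marveld2 encodes tricellulin, the relative of occludin at corners where several cells meet, and is the next tested gene to Ocln, 43238 bp away. Its own means were 891 ± 48.8 (SD, n = 5) and 916 ± 152 (SD, n = 4), which gave a log2 fold change of 0.03 (limma adjusted p = 0.897). The log2 ratio of Ocln to Marveld2 was 0.99 to 1.44 in ApcMin/+ mice and 0.49 to 0.73 in ApcMin/+; p16cis/cis mice, a difference of -0.65 without overlap. Marveld2 has a GC content of 49.2%, above that of Ocln, so the GC trend enters this ratio.

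Cldn4 and Cldn3 are likewise neighbors among the tested genes, 39279 bp apart. The log2 ratio of Cldn4 to Cldn3 was -5.07 to -3.69 in ApcMin/+ mice and -5.79 to -5.22 in ApcMin/+; p16cis/cis mice. The genotypes did not overlap in this ratio, although they overlapped in each gene alone, and the difference was -0.94. Cldn3 has a GC content of 62.7%, above the 56.8% of Cldn4, so the GC trend enters this ratio as well. After the GC correction the log2 fold changes were -0.06 for Cldn3 and -0.82 for Cldn4. Over all pairs of neighboring tested genes, 12.4% had log ratios without overlap in either direction.

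**Figure D5:**
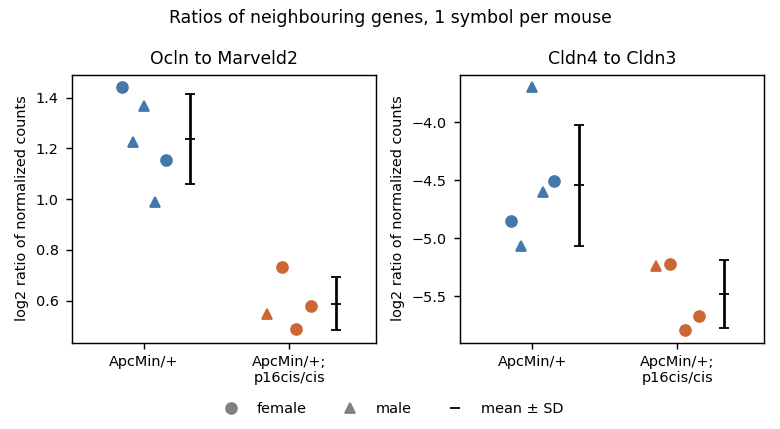
log2 ratio of normalized counts (y axis) for the neighboring pairs Ocln to Marveld2 and Cldn4 to Cldn3 in each mouse, by genotype and sex, with mean ± SD (n = 5 and n = 4). The ApcMin/+; p16cis/cis mice lie below all ApcMin/+ mice in both ratios, by -0.65 and -0.94 between the means.

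Other claudins were scarce in these libraries. Of 21 listed, 18 were in the table, 6 were at 0 in all mice and 1, Cldn14, was tested (-0.24, limma adjusted p = 0.647). Cldn1, a sealing claudin, had 6, 2, 7, 0 and 5 reads in ApcMin/+ mice and 0 in each ApcMin/+; p16cis/cis mouse. Cldn5, best known from endothelium, had 10, 13, 13, 0 and 6 reads in ApcMin/+ mice and 1, 0, 2 and 0 in ApcMin/+; p16cis/cis mice. At so few reads, ApcMin/+ mouse 4 could not be told from the ApcMin/+; p16cis/cis mice for either gene. Cldn18, the claudin of stomach and lung, had 3 reads in ApcMin/+ mouse 3 and none elsewhere.

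Of the other membrane proteins of the tight junction, 9 of 14 listed genes were tested and 1 passed, lower. Of all genes tested, 8.75% passed lower and 8.14% higher, so this count is near the background. This was Cxadr, which encodes an adhesion molecule and virus receptor, with means of 3826 ± 275 (SD, n = 5) and 2804 ± 212 (SD, n = 4), which gave a log2 fold change of -0.45 (SE 0.09, limma adjusted p = 0.0104). Its GC content was 42.0%, as low as that of Ocln, and after the GC correction it was at -0.20 and did not pass (limma adjusted p = 0.208). F11r, the gene of the adhesion molecule JAM-A, had a log2 fold change of -0.24 (limma adjusted p = 0.216).

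In the plaque beneath the membrane, 29 of 31 listed scaffold, polarity and signaling genes were tested, and 5 were lower and 6 higher, beside 8.75% and 8.14% of all genes. Tjp3 and Cgn, the cingulin gene, gave small differences, with log2 fold changes of 0.04 (limma adjusted p = 0.841) and -0.02 (limma adjusted p = 0.928). The genes named next are not all of those that passed. Of the genes acting on actin and myosin tension, Mylk, the myosin light chain kinase gene, was lower (-0.87, limma adjusted p = 0.00612). The kinase genes Rock1 (-0.81, limma adjusted p = 0.00858) and Rock2 (-0.40, limma adjusted p = 0.0205) were lower too, while Arhgef2 was higher (0.39, limma adjusted p = 0.0496). Wnk4, a kinase known to act on claudin-mediated chloride passage, was higher (0.62, limma adjusted p = 0.00571), as were Sympk (0.38, limma adjusted p = 0.0133) and Tjap1 (0.58, limma adjusted p = 0.0143). After the GC correction Mylk and Rock1 remained lower and Wnk4, Sympk and Tjap1 remained higher. Rock2 at -0.13 (limma adjusted p = 0.393) and Arhgef2 at 0.37 (limma adjusted p = 0.0751) did not pass in that fit. The median over the tested plaque genes was -0.02.

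Adherens junctions and desmosomes lie below the tight junction. All 21 listed genes were tested, and 4 were lower and 1 higher, with a median log2 fold change of -0.22. Ctnnb1, the β-catenin gene, had the clearest difference of the junction genes, with 10353 ± 721 (SD, n = 5) and 6090.5 ± 711 (SD, n = 4) normalized counts, giving a log2 fold change of -0.77 (limma adjusted p = 0.0026) that was -0.73 after the GC correction. Its partner Ctnna1 (-0.47, limma adjusted p = 0.0124) and the desmosomal cadherins Dsc2 (-0.68, limma adjusted p = 0.00527) and Dsg2 (-0.39, limma adjusted p = 0.0442) were lower too, whereas Nectin1 was higher (0.51, limma adjusted p = 0.0453). Dsg2 and Nectin1 did not pass after the GC correction. Cdh1, the E-cadherin gene, had a log2 fold change of 0.01 (limma adjusted p = 0.983). Over the 4 lists of junction genes beside the members, 10 of 60 tested genes were lower and 7 higher, beside 8.75% and 8.14% of all genes tested. After the GC correction 5 were lower and 3 higher, beside 5.76% and 6.33% of all genes.

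Of the epithelial transcription factors, 15 of 19 listed were tested. Grhl1, of the grainyhead family that is known to control epithelial junction genes, was lower, at 25.4 to 48.8 normalized counts in ApcMin/+ and 6.01 to 28.7 in ApcMin/+; p16cis/cis mice (-1.54, limma adjusted p = 0.0252). Cdx2 (-0.25, limma adjusted p = 0.285) and Hnf4a (-0.00, limma adjusted p = 0.990), which specify intestinal epithelium, did not pass.

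Markers of cell states within the epithelium were counted in the same way, against 8.75% lower and 8.14% higher over all genes tested. Of 14 surface colonocyte markers 5 were lower, with a median log2 fold change of -0.58 and a summed normalized count of 271677 to 550954 in ApcMin/+ and 274365 to 420032 in ApcMin/+; p16cis/cis mice. Of 12 proliferation markers 6 were higher, with sums of 8870 to 12041 and 12891 to 16801 that did not overlap. Of 13 crypt base markers 1 was lower and 2 were higher (median log2 fold change 0.24), and of 8 goblet markers 1 was higher (median 0.26). Of 10 enteroendocrine and tuft markers 3 were lower, yet the median log2 fold change of that list was 0.37. Of 10 epithelial markers 2 were lower, of 13 tested immune markers 2, of 9 tested stroma and muscle markers 1 and of 3 tested endothelial markers none. No marker of these lists was at 0 in all mice. The part of these markers in the Ocln, Cldn4 and Cldn23 values was not tested.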

How the data were processed

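RNA was extracted from colonic crypts, per the methods, for mucosa samples of 9 mice, each 1 replicate. The authors sequenced libraries on the BGISEQ-500 platform, aligned reads with BOWTIE2, estimated gene levels with RSEM and compared genotypes with DESeq2. The versions, genome build, annotation and strandedness are not given in the sources used here. The deposited table holds signal values that the authors obtained by dividing gene counts by the size factor of each mouse. Each value divided by the value of 1 read of its mouse came out whole to within 0.01 reads for 100% of positive values, and the recovered libraries held 13523500 to 17885918 reads on genes. Floors and shares cover counting error only.

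The 14410 genes that reached 10 in 4 or more mice were tested on the log2(normalized count + 1) scale by limma 3.58.1 (R 4.3.3, eBayes with a variance trend) with a genotype term alone and Benjamini-Hochberg adjustment over all of them. A gene passed at an adjusted p-value under 0.05. Fold changes on this scale understate the change of low genes. edgeR 4.0.16 (1304 genes lower, 1165 higher) and DESeq2 1.42.0 (1725 lower, 1526 higher) on recovered reads, TMM scaling, another pseudocount, other filters, sex, females alone, the mitochondrial share, the replicate number as a block and each mouse left out were alternatives. A loess correction of each mouse for GC content and length (span 0.5) was added after seeing the data, together with the same fit with the block. The limma fits were tested on simulated data. With 200 of 14410 genes changed, the main fit passed 67% of changes of 1 and 88% of changes of 2 on the log2 scale. Of the genes it passed, 6.06% were unchanged. Smaller changes, such as those of Cldn4 and Cldn23, were not simulated.

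The members and all gene lists were chosen with earlier results of these data known. All members are named, as are the genes of each other junction or transcription factor list that passed, at most 6 a list by smallest p, and Cldn1, Cldn5, Cldn18, Tjp3, Cgn, Marveld2, F11r, Cdh1, Cdx2 and Hnf4a. Cldn14, Arhgef2, Snai1, Snai2, Wbscr25 and the markers were named after their values were seen. Some genes that meet this rule are not reported here. Identifiers were matched to GENCODE M21 (GRCm38) for 54079 of 54146 genes, which gave coordinates, lengths and GC content, and promoter windows came from RefSeq (GRCm38.p6). Same-numbered mice of the genotypes did not deviate together (correlations of -0.18, 0.07, 0.05 and 0.14 over genes). The numbers were therefore not taken to pair mice, although weak correlations cannot exclude a shared origin.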

Additional observations from a re-analysis of the deposited data

Results flagged for a closer look

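Of 70 groups of mice checked over 35 named genes, 3 held a mouse whose gap to its nearest neighbor was large for the range of its group by Dixon's criterion, where chance gives about 1 in 20 groups (3.5 here). Cxadr had 3120 normalized counts in ApcMin/+; p16cis/cis mouse 1 and 2685 to 2721 in the other 3 of that genotype, all below every ApcMin/+ mouse. Tjap1 had 771 in ApcMin/+; p16cis/cis mouse 4 and 534 to 570 in the other 3. Cldn18 had 2.93 in ApcMin/+ mouse 3 and 0 in the other 4. None of the 10 members held such a mouse. A test of whether the genotype difference itself differed between sexes found 0 genes with limma at an adjusted p-value under 0.05, members included, and 979 at an unadjusted p-value under 0.05, with a single ApcMin/+; p16cis/cis male behind it.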

How the results depend on the processing

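Over all genes, 1261 were lower and 1173 higher. With sex as a covariate the counts were 761 and 676, in females alone 379 and 519, with the mitochondrial share as a covariate 0 and 0 (798 genes at an unadjusted p-value under 0.05), and lower after the GC correction 830. Leaving out 1 mouse gave 648 to 1797 lower and 535 to 1691 higher, with the smallest counts without ApcMin/+; p16cis/cis mouse 4. Counts also fell by over 1.5 times without ApcMin/+ mice 2 or 3 or ApcMin/+; p16cis/cis mouse 2. Of the members 1 was lower, and 2 with DESeq2, 2 after the GC correction, 0 with the mitochondrial share and 0 with a fold change over 2. Leaving out 1 mouse gave 1 to 2 lower members and 0 to 0 higher. Among the other junction genes, 10 were lower and 7 higher. In females alone these were 6 and 1, with the mitochondrial share 0 and 0, and after the GC correction 5 and 3. The higher count was 3 without the filter and 3 with sex as a covariate. Leaving out 1 mouse gave 6 to 11 lower, with 6 without ApcMin/+; p16cis/cis mice 2 or 4, and 3 to 7 higher, with 3 without any 1 mouse except ApcMin/+ mice 4 and 5. The difference in the Cldn2 and Cldn15 share was -2.71 to -0.13 with 1 mouse left out.

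The replicate number as a block, which is not known to pair animals, gave 2 lower members, since Cldn23 then passed at -0.65 (limma adjusted p = 0.0224). With the block and the GC correction 671 genes were lower and 641 higher, 2 members were lower, and 4 other junction genes were lower and 2 higher. In that fit the log2 fold change was 0.015 for Cldn2, -0.086 for Cldn3, -0.071 for Cldn15 and 0.083 for Tjp1, all on the other side of 0 from the value tested.

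Of 210 alternative fold changes of the members, 177 kept both direction and side of the threshold, 1 (Ocln with the mitochondrial share) no longer passed, 6 (Cldn4 and Cldn23) newly passed and 26 changed sign. None of the values that changed sign passed in either fit. Cldn2 was 0.032 with sex as a covariate, 0.041 in females, 0.33 with the mitochondrial share, 0.021 after the GC correction and -0.11 to 0.081 with 1 mouse left out. Cldn3 was -0.059, Cldn15 -0.088 and Tjp1 0.050 after the GC correction. Cldn7 was 0.037 with sex, 0.20 in females, 0.16 with the mitochondrial share and -0.092 to 0.055 with 1 mouse left out, Cldn8 was 0.27 with the mitochondrial share, and Cldn15 was -0.069 to 0.12 with 1 mouse left out. The cause was not tested for any of them. Scarce claudins such as Cldn1 lie under what these depths can compare.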
